A study of Mus musculus with 8 samples.

Results

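The transcripts of 10 genes of the p53 response and of apoptosis were followed in mouse liver with and without AIM during feeding of a high-fat diet. The 10 genes are Cdkn1a, Mdm2, Ccng1, Bax, Bbc3, Trp53inp1, Gadd45a, Btg2, Fas and Tnfrsf10b, taken as every non-control probe that carries one of these gene names, which gave 18 of the 41174 probes and 10 of the 28478 gene names of the array. Of these, 9 genes had a probe well above background on at least 2 of the 8 arrays and stand among 15342 genes compared. Tnfrsf10b, which encodes the mouse receptor for the death ligand TRAIL, was not well above background with any of its 3 probes on any array, with signals between 5.03 and 26.2, and is given no fold change. The filter did not use genotype or week.

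AIM (apoptosis inhibitor of macrophage, encoded by Cd5l) is a protein secreted by tissue macrophages. Liver RNA came from AIM-/- mice (the knockout, KO) and AIM+/+ mice (the wild type, WT), both on a C57Bl/6 background. Each genotype was sampled on normal chow (0 weeks) and after 6, 12 and 20 weeks of high-fat diet, with 1 one-colour array per genotype and week. The labels used here give neither the sex nor the age of the mice, nor the number of animals behind an array. Because chow was sampled only at 0 weeks, diet and the time that passed cannot be told apart.

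p53 is a transcription factor that cells stabilise after DNA damage, stress or nutrient imbalance, and in the liver it has been linked to steatosis and to the limits on hepatocyte division. Its targets drive cell death through mitochondria (Bax, Bbc3) and through death receptors (Fas, Tnfrsf10b). They also halt the cell cycle (Cdkn1a, Gadd45a, Btg2) or feed back on p53 itself (Mdm2, Ccng1, Trp53inp1). Several of them, Cdkn1a, Gadd45a and Btg2 among them, also answer to growth factors, glucocorticoids and other stress signals without p53. In whole liver a lower signal from fewer cells of a type and one from less RNA per cell cannot be told apart.

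The arrays were checked before use. Each array had 18586 to 21119 probes marked by the scanner software as above background, and no spot was saturated. Cd5l gave signals of 90.7 to 171 on the KO arrays, against 10544 to 30201 on the WT arrays. All 7 measured hepatocyte markers were well above background on all 8 arrays. The Y-linked gene Ddx3y was well above background on the 6 arrays of 0, 6 and 12 weeks and on neither array of 20 weeks, where the brightest Xist probe gave 4312 in KO and 4434 in WT, so that sex and the 20-week time point cannot be told apart. The 4 arrays of each genotype were on 1 slide, so that genotype and slide cannot be told apart either. Tests used limma on log2 signals scaled to the 75th percentile of each array, with Benjamini-Hochberg adjustment over all 15342 genes and a threshold of 0.05. No genotype has a second array at any week. The error of a genotype difference therefore comes from how it varies over the weeks, and the error of a diet difference from how it varies between the genotypes, and p-values say nothing on the spread from animal to animal.

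The promoters of the genes were read for the p53 half-site consensus, a motif of 10 bases that reads the same on both strands, because p53 binds to pairs of it. RefSeq windows (GRCm38.p6) were found for 8 of the 10 genes, and the 250 bases before each of their 11 annotated starts were searched. A half-site was present in 5 of the 11 windows, against 7.13% of 32851 windows of the same length over all genes. Only the upstream of 2 Cdkn1a starts held a full site (a pair of half-sites at most 13 bases apart), which 0.0639% of all windows hold. The windows with a half-site are given here in the direction of transcription, ending at the base before the start, with half-sites in capitals.
Cdkn1a, upstream start, chr17:29090729-29090978, plus strand: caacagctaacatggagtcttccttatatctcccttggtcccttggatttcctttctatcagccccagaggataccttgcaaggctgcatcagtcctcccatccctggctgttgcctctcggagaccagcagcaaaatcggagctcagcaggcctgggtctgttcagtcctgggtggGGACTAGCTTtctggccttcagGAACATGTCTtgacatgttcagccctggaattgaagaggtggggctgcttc
Mdm2, chr10:117710759-117711008, minus strand: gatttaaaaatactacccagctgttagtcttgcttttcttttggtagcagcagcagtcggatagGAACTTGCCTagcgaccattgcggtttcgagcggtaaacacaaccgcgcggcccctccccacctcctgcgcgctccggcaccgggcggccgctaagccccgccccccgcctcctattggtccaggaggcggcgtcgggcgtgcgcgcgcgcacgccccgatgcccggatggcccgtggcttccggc
Ccng1, chr11:40755287-40755536, minus strand: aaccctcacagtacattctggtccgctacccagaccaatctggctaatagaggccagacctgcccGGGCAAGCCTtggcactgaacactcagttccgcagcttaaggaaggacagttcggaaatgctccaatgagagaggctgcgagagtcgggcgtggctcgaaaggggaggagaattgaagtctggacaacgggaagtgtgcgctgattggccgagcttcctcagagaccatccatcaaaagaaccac
Bax, chr7:45466899-45467148, minus strand: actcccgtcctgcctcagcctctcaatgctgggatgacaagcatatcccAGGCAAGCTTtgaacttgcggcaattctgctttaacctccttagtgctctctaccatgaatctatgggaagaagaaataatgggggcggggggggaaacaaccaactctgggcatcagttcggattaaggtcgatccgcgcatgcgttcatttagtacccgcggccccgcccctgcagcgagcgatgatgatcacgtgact
Gadd45a, chr6:67037408-67037657, minus strand: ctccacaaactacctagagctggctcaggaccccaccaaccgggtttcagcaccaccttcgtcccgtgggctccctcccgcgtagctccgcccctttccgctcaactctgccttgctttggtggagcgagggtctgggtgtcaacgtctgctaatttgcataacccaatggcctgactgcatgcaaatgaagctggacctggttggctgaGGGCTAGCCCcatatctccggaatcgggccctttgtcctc

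The Cdkn1a half-sites began 73 and 51 bases before that start. The half-site of Gadd45a began 40 bases before the start, that of Ccng1 185, that of Mdm2 186 and that of Bax 201. The window of the second Cdkn1a start, the 3 windows of Bbc3 (2 of which overlap) and those of Btg2 and Fas held no match. The GC-box core GGGCGG, counted on both strands, occurred in 9 of the 11 windows and in 32.7% of all windows, CCAAT in 5 and in 33.8%, and TATAAA in 0 and in 12.4%. A match is a description of these letters and says nothing on binding in these livers.

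Cdkn1a, which encodes the cyclin-dependent kinase inhibitor p21, varied more than any other of the genes. Its signal in KO livers was 26.8, 466, 1186 and 315 at 0, 6, 12 and 20 weeks, against 98.3, 37.2, 553 and 551 in WT livers. Both genotypes were high at 12 and 20 weeks and low on chow, but at 6 weeks the KO array was among the high ones and the WT array among the low ones. The lowest array, KO on chow, was not well above background for Cdkn1a, so folds against it are bounds on scaled levels: in KO livers Cdkn1a was at least 13.2-fold higher at 6 weeks, at least 35.9-fold higher at 12 weeks and at least 8.10-fold higher at 20 weeks than on chow. In WT livers it was 2.44-fold lower at 6 weeks than on chow, 5.10-fold higher at 12 weeks and 4.47-fold higher at 20 weeks, each from 1 array against 1. The Cdkn1a probe (chr17:28828096-28828155 in the array files, mm8) was spotted 10 times on each array, and its replicate spots had an SD of 0.02 to 0.24 log2 units.

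**Figure D1:**
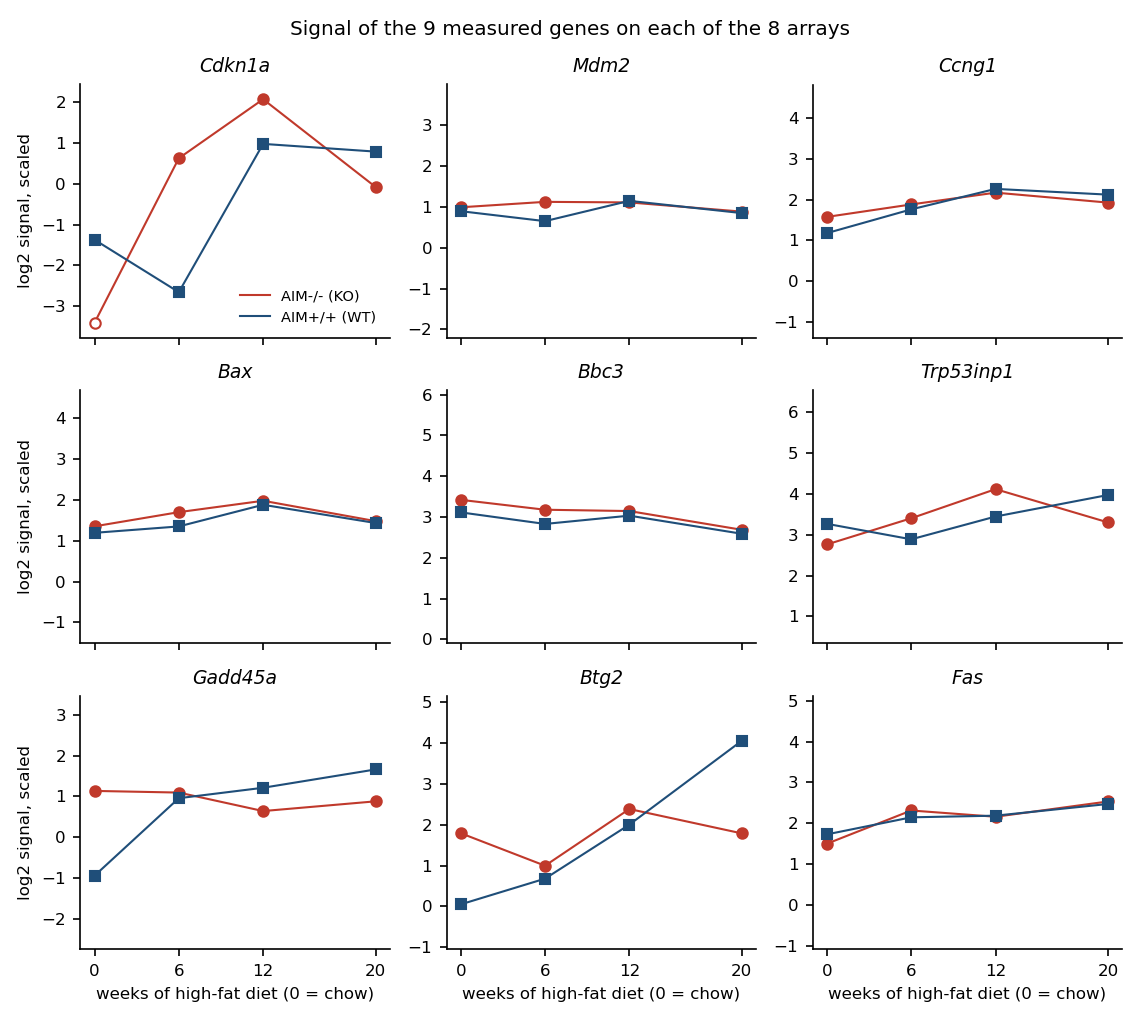
Scaled log2 signal (vertical axis, log2 of signal over the 75th percentile of the array) of the 9 measured genes against weeks of high-fat diet (0 is chow), with KO as circles and WT as squares. Each point is 1 array, the open circle was not well above background, and every panel spans the same number of log2 units. Btg2 spans 4.01 log2 units and Mdm2 0.50, while the span of Cdkn1a reaches down to the open circle and has no measured lower end.

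The other genes of growth arrest, and Ccng1 beside them, differed among themselves. Btg2, an antiproliferative gene that is also induced early after stimulation, gave signals of 983, 602, 1474 and 1147 in KO livers at 0, 6, 12 and 20 weeks, against 263, 375, 1124 and 5306 in WT livers. One array, WT at 20 weeks, stood far above the others, and WT on chow was the lowest. Both further Btg2 probes showed the same extremes, with 2027 and 698 on the WT array of 20 weeks and 165 and 41.5 on the WT array of chow. Gadd45a, a stress-induced gene of growth arrest and DNA repair, gave 621, 643, 439 and 610 in KO livers, against 132, 454, 649 and 1006 in WT livers. All 4 KO arrays lay within the span of the 3 WT diet arrays or just below it, and the WT chow array was alone at the low end. Ccng1 (cyclin G1), which brings a phosphatase to Mdm2, gave 844, 1111, 1268 and 1261 in KO livers, against 575, 793, 1344 and 1386 in WT livers. Both genotypes were higher on every diet week than on their own chow array. A second Ccng1 probe ranged from 471 to 1189.

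Of the regulators of p53, Mdm2 had the narrowest range among the 9 genes. Mdm2, the ubiquitin ligase that degrades p53, gave 563, 657, 608 and 613 in KO livers, against 473, 368, 621 and 574 in WT livers, and its scaled range of 1.41-fold was larger than that of only 21.7% of all genes. A second, dimmer Mdm2 probe (19.6 to 41.8) exceeded background on 2 arrays. Trp53inp1, a p53-induced nuclear protein that promotes autophagy and death, gave 1927, 3200, 4901 and 3280 in KO livers, against 2451, 1736, 3062 and 5015 in WT livers. The KO series was highest at 12 weeks and the WT series at 20 weeks, and the scaled range of 2.56-fold was larger than that of 74.4% of all genes. The mRNA of p53 itself, Trp53, gave signals between 592 and 652 in KO livers and between 555 and 703 in WT livers. On scaled log2 levels every diet array lay below the chow array of its genotype. These levels were 1.08 on chow and 0.97 to 1.07 on diet in KO, and 1.47 on chow and 1.02 to 1.24 on diet in WT. The difference between diet and chow over both genotypes did not pass the threshold (-0.21, SE 0.13, limma adjusted p = 0.356).

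Among the genes of cell death, Fas, the death receptor for Fas ligand, gave 800, 1497, 1257 and 1919 in KO livers, against 841, 1034, 1274 and 1766 in WT livers. The 6 diet arrays all lay above both chow arrays, with 20 weeks the highest in both genotypes. A dimmer Fas probe, placed on another transcript, ranged from 83.4 to 132. Bax, which permeabilises the mitochondrial outer membrane, gave 723, 980, 1111 and 926 in KO livers, against 581, 597, 1032 and 861 in WT livers, highest at 12 weeks in both. Bbc3 (PUMA), a BH3-only activator of Bax, gave 3039, 2734, 2498 and 2140 in KO livers, against 2202, 1667, 2298 and 1920 in WT livers. It was the only one of the 9 with all 3 diet weeks below chow in both genotypes on scaled levels.

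High-fat diet was set against chow first, with the mean of 6, 12 and 20 weeks (6 arrays) against chow (2 arrays). None of the 9 genes passed the threshold, while 1.54% of all genes rose and 0.795% fell. Of the 9 genes, 4 had an unadjusted p under 0.05, as did 3868 of the 15342 genes. Of their 9 coefficients 8 were above 0 and their median was 0.64 log2 units, while 7265 of the 15342 genes were above 0 with a median of -0.02. Without the WT chow array 6 of 9 were above 0 and the median was 0.37. The diet mean includes the 20-week arrays, where sex may differ, and 3 of 4 measured X- and Y-linked genes passed as lower on diet. Without both 20-week arrays 8 of the 9 genes were above 0 and their median was 0.59. Fas came nearest to the threshold, with a scaled log2 level of 2.30 ± 0.17 on diet and 1.61 ± 0.16 on chow (SD, 6 and 2 arrays) and a difference of 0.69 (SE 0.12, limma adjusted p = 0.0610). Ccng1 was 2.02 ± 0.19 on diet and 1.38 ± 0.28 on chow, a difference of 0.64 (SE 0.15, limma adjusted p = 0.0905). Fas and Ccng1 were the 2 genes whose diet arrays all lay above both chow arrays, which held for 10.4% of all genes.

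The gene with the largest coefficient also had the widest error. Cdkn1a was 2.68 log2 units higher on diet (SE 1.04, limma adjusted p = 0.198), from a level of 0.29 ± 1.60 on diet and -2.39 ± 1.44 on chow, where only 1 of the 2 chow arrays was well above background. Without the KO chow array its coefficient was 1.07. Without the WT chow array it was 4.28, a value limited by background, since the KO chow array alone then stood for chow. Btg2 was 1.06 higher (SE 0.75, limma adjusted p = 0.417) and Gadd45a 0.98 higher (SE 0.59, limma adjusted p = 0.350). Both of these rested on the WT chow array: without it Btg2 stood at -0.07 and Gadd45a at -0.26, and without the KO chow array at 2.20 and 2.22. Trp53inp1 (0.51, SE 0.32), Bax (0.36, SE 0.11), Mdm2 (0.02, SE 0.14) and Bbc3 (-0.36, SE 0.11) had limma adjusted p-values of 0.372, 0.140, 0.947 and 0.143.

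**Figure D2:**
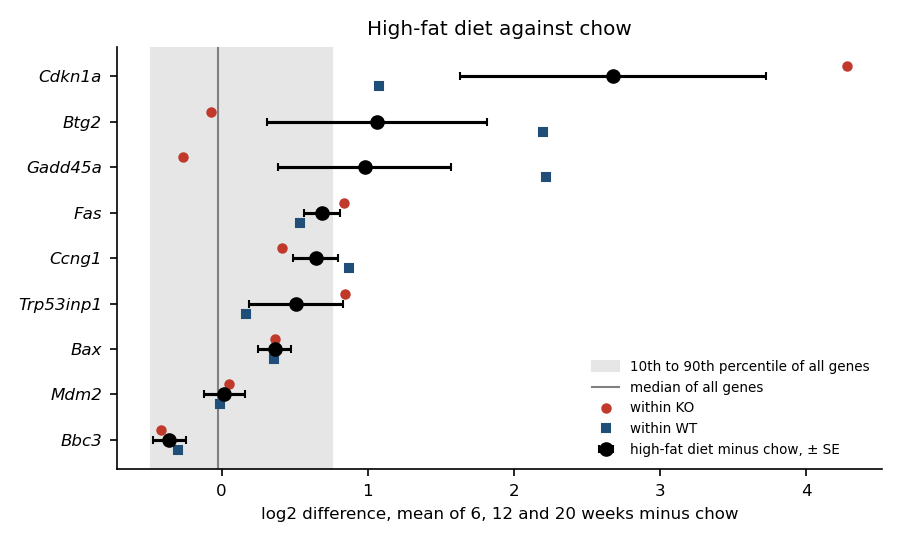
Log2 difference between the mean of 6, 12 and 20 weeks of high-fat diet and chow (horizontal axis) for 9 genes, as the coefficient over both genotypes with its SE (black) and within KO (circles) and WT (squares). The grey band runs from the 10th to the 90th percentile of all 15342 genes, -0.48 to 0.76. The genotypes lie far apart for Cdkn1a, Btg2 and Gadd45a and close together for Bax, Mdm2 and Bbc3. For Cdkn1a the KO chow array was not well above background.

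Wider lists of the pathway, chosen with earlier results of these data known, were read beside the 10 genes. Of 30 further p53 targets 25 were measured, none passed the threshold, and 23 of 25 coefficients were above 0 with a median of 0.61. Without the 20-week arrays that count was 20 of 25 and the median 0.51, and without the WT chow array 19 of 25 and 0.45. The median was lowest without the WT array of 20 weeks (0.31), without the KO chow array (0.36) and without both 12-week arrays (0.39). Phlda3, which restrains Akt signalling, gave 188, 598, 2368 and 846 in KO livers at 0, 6, 12 and 20 weeks, against 168, 170, 1584 and 1333 in WT livers. Its diet coefficient was 2.18 (SE 0.42, limma adjusted p = 0.0663), and both genotypes were highest at 12 weeks. Epha2, a receptor tyrosine kinase, stood 1.43 higher on diet (SE 0.33), Pmaip1 (NOXA, a BH3-only protein) 0.88 higher (SE 0.26) and the stress sensor Sesn2 0.78 higher (SE 0.22), with limma adjusted p-values of 0.0863, 0.131 and 0.121. All 6 diet arrays lay above both chow arrays for each of these 4 genes, which were named for their large coefficients. This held for 10 of the 25 further p53 targets and for 10.4% of all genes. All 6 lay below both chow arrays for 1 of the 25 and for 10.6% of all genes.

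The lists around p53 and downstream of it had medians nearer to 0. Among p53 and its regulators 10 of 15 genes were measured, 4 of them above 0, with a median of -0.09 and none past the threshold. Of these Mdm4, a partner of Mdm2 that inhibits p53, had a coefficient of -0.41 (SE 0.11, limma adjusted p = 0.112). In the BCL2 family 13 of 16 were measured and none passed, with a median of 0.11. Bcl2a1b, an antiapoptotic member abundant in myeloid cells, had a coefficient of 1.43 (SE 0.37, limma adjusted p = 0.103), and has near-identical copies in the mouse genome that the array may not tell apart. Bcl2l14 was at least 2.54-fold higher on diet (limma adjusted p = 0.0740), since neither chow array was well above background. Death receptors and their adaptors (10 of 13 measured, median 0.22) and caspases with the apoptosome and its inhibitors (19 of 20 measured, median 0.00) had none past the threshold. All 11 growth arrest relatives were measured and none passed, with a median of 0.30. Nearest to the threshold among them was Trp53inp2, an autophagy gene related to Trp53inp1, at 0.91 (SE 0.15, limma adjusted p = 0.0539).

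Other lists moved over the same weeks. Of 11 measured proliferation markers 4 rose on diet, namely Ccna2, Mcm2, Mki67 and Plk1, of which Mki67 was 2.44 log2 units higher (SE 0.22, limma adjusted p = 0.0289, with 1 of 2 chow arrays well above background). Leaving out both 12-week arrays, both 20-week arrays or any single array other than WT at 6 weeks left 0 genes called for diet, while the median of the proliferation markers was 1.22 to 1.79 in those fits, against 1.78 with every array. Of 7 measured markers of recruited macrophages Ccr2 rose at least 1.12-fold (neither chow array was well above background, limma adjusted p = 0.0393) and Spp1 rose by 3.52 log2 units (SE 0.47, limma adjusted p = 0.0468). Spp1 also stands on the cholangiocyte list, where it was the 1 called gene of 5 measured, 4 of them above 0. Of the stellate cell markers 9 of 9 were above 0 (median 0.53), and Lrat rose by 0.69 (SE 0.10, limma adjusted p = 0.0498). Above 0 were also 8 of 12 Kupffer cell (median 0.38), 7 of 8 T and NK cell (0.55), 6 of 7 endothelial (0.29) and 5 of 5 neutrophil markers (0.54). Below 0 were 6 of 7 hepatocyte markers (-0.25) and 3 of 3 B cell markers (-0.75). None in these 6 lists passed the threshold. The summed scaled signal of the 7 macrophage markers was 69.2 to 206 on the KO diet arrays and 75.1 to 145 on the WT diet arrays, against 62.8 (KO) and 71.1 (WT) on chow, and that of the 11 proliferation markers 14.4 to 30.5 (KO) and 17.4 to 44.9 (WT) on diet, against 12.4 and 11.8 on chow. These sums were carried mostly by the brightest markers. They were Lyz2, with Spp1 at 12 and 20 weeks, among the macrophage markers, and Mcm6 and Pcna among the proliferation markers. On chow 2 of the 7 macrophage markers in KO and 3 in WT were not well above background. The same held for 4 of the 11 proliferation markers in KO and 5 in WT, so their median is limited by background. Of the called markers Ccna2 was well above background on 6 arrays, Mki67 and Plk1 on 7 and Mcm2 on 8. Whether the cells marked by these lists had a part in the values of the p53 targets was not tested.

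Between weeks of diet, 12 was set against 6 weeks and 20 against 6 weeks. No gene of the 15342 passed at 12 against 6 weeks with limma (2715 had an unadjusted p under 0.05). Among the 9 genes 5 had both 12-week arrays above both 6-week arrays, which held for 22.6% of all genes, and none had both below, which held for 29.1%. These were Cdkn1a (2.54, SE 1.28, limma adjusted p = 0.381), Btg2 (1.36, SE 0.92, limma adjusted p = 0.501), Trp53inp1 (0.64, SE 0.39, limma adjusted p = 0.465), Bax (0.40, SE 0.14, limma adjusted p = 0.244) and Ccng1. The coefficient of Cdkn1a was 0.60 without the WT array of 6 weeks and 4.48 without the KO array of 6 weeks. That of Trp53inp1 was 0.29 and 0.98 without those arrays, 0.19 without the KO array of 12 weeks and 1.08 without the WT array of 12 weeks. At 20 against 6 weeks 0.0717% of all genes rose and 0.0456% fell, none of them among the 9. Both 20-week arrays lay above both 6-week arrays for Btg2, Fas and Ccng1 (24.1% of all genes) and below them for Bbc3 (28.6%). The second probes of Fas and Ccng1 did not share this order: that of Fas stood at -0.29 log2 units, with both 20-week arrays below both 6-week arrays, and that of Ccng1 at 0.06, with overlapping arrays. Btg2 stood 2.09 log2 units higher (SE 0.92, limma adjusted p = 0.355), and 0.54 without the WT array of 20 weeks. Cdkn1a stood 1.37 higher (SE 1.28, limma adjusted p = 0.629), and -0.57 without the WT array of 6 weeks.

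Genotype was tested over all weeks, KO minus WT. Of all genes 0.013% rose and 0.0196% fell, and none of the 9 passed. None had its 4 KO arrays all above the 4 WT arrays, as 0.652% of all genes did, or all below them, as 1.62% did. The largest coefficients were those of Cdkn1a (0.37, SE 0.90, limma adjusted p = 0.9996), which was -0.60 without either array of 6 weeks, and Bbc3 (0.22, SE 0.10, limma adjusted p = 0.951). Bbc3 was higher in KO than in WT at each of the 4 weeks, by 0.10 to 0.35 log2 units, as was Bax, by 0.05 to 0.35 (coefficient 0.16, SE 0.10, limma adjusted p = 0.9996). The coefficient of Mdm2 was 0.14 (SE 0.12, limma adjusted p = 0.9996).

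At single weeks 1 array stood against 1, so no test was made, and genes at least 2-fold apart were counted. On chow Gadd45a (4.22-fold) and Btg2 (3.35-fold) were higher in KO, and Cdkn1a was at least 3.30-fold lower. At this week 2.91% of all genes were at least 2-fold higher in KO and 4.33% lower. At 6 weeks Cdkn1a was 9.73-fold higher in KO, where 3.06% of all genes were at least 2-fold higher and 3.51% lower, and all 9 genes were above 0 with a median of 0.35, against 6808 of 15342 and a median of -0.05 over all genes. Phlda3 and Gdf15, a secreted stress factor, were the 2 further p53 targets at least 2-fold higher in KO at 6 weeks, by 1.44 and 3.62 log2 units. Markers of several cell types differed on the same 2 arrays. All 9 stellate cell markers (median 0.61), all 7 endothelial markers (0.29) and 6 of 7 recruited macrophage markers (0.94) were higher in KO, and 0 of 12 Kupffer cell markers (-0.36) and 0 of 7 hepatocyte markers (-0.33) were. At 20 weeks 0 of 12 Kupffer cell (-0.49), 0 of 7 recruited macrophage (-0.56) and 0 of 9 stellate cell markers (-0.05) were higher in KO. At that week 0 of 5 neutrophil (-1.37), 4 of 8 T and NK cell (0.00) and 3 of 7 hepatocyte markers (-0.05) were. At 12 weeks 7 of 8 T and NK cell (1.30), 7 of 7 recruited macrophage (0.72) and 5 of 12 Kupffer cell markers (-0.16) were. The part of these cells in the values of the 9 genes and the 25 other p53 targets was not tested. At 12 weeks Cdkn1a alone of the 9 was past 2-fold, at 2.14-fold higher in KO (2.54% of all genes higher, 2.02% lower). At 20 weeks Btg2 was 4.82-fold lower in KO (2.17% of all genes lower, 1.99% higher), with Gadd45a 1.72-fold and Cdkn1a 1.82-fold lower. The 9 genes were not all on one side at the weeks other than 6: on chow 6 were higher in KO and 3 lower (median 0.16), at 12 weeks 5 and 4 (0.10), and at 20 weeks 4 and 5 (-0.20). Of the 25 other p53 targets 13 were higher in KO on chow, 17 at 6 weeks and 19 at 12 weeks. At 20 weeks 20 were lower (median -0.17), 3 of them at least 2-fold, with 1 at least 2-fold higher. Over all 15342 genes 7935 were higher in KO on chow, 7593 at 12 weeks and 8496 at 20 weeks, where 6844 were lower (median 0.03).

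**Figure D3:**
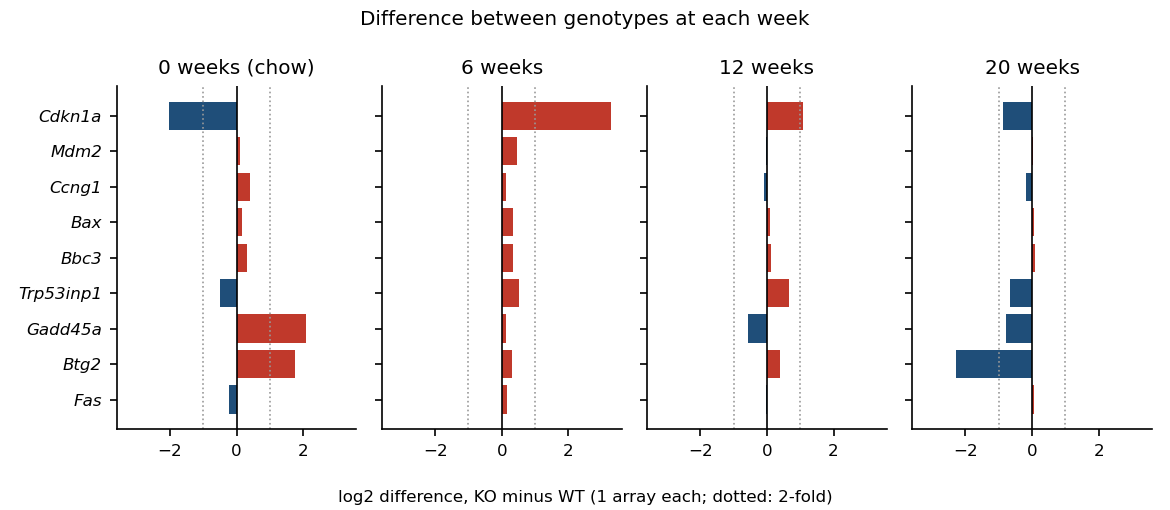
Log2 difference KO minus WT (horizontal axis) of 9 genes at each week, 1 array against 1, with dotted lines at a 2-fold difference. At 6 weeks all 9 bars lie on the KO-higher side, Cdkn1a at 3.28, and at 20 weeks Btg2 lies at -2.27.

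Clock genes and immediate early genes also differed between these pairs of arrays. On chow 10 of 12 measured clock genes were higher in KO, 8 of them at least 2-fold. Ciart was at least 14.7-fold and Dbp 6.90-fold higher, while Arntl, which peaks opposite to them, was at least 9.59-fold lower. At 6 weeks 4 of the 12 clock genes were higher in KO and 8 lower (median -0.46). Of these, 1 was at least 2-fold higher and 2 at least 2-fold lower. At 12 weeks 6 were higher and 6 lower (-0.04), and at 20 weeks 5 and 7 (-0.06), with none 2-fold apart. At 20 weeks all 14 immediate early genes were lower in KO, 13 of them at least 2-fold, with a median of -1.64 and Fos at -3.26. At the other weeks 8 of the 14 were higher in KO on chow (median 0.27), 12 at 6 weeks (0.77) and 11 at 12 weeks (0.58). At least 2-fold higher in KO were 2 on chow, 6 at 6 weeks and 3 at 12 weeks. At least 2-fold lower were 2, 1 and 0. Immediate early genes are the first transcripts a stimulus induces, and Btg2 is itself known as an early response gene. Their summed scaled signal at 20 weeks was 58.7 in KO and 180 in WT. The part of either list in the differences of Btg2, Gadd45a and Cdkn1a was not tested.

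Whether diet acted differently in the genotypes was tested as an interaction, the diet difference in KO minus that in WT. No gene passed with limma (679 of 15342 had an unadjusted p under 0.05). Gadd45a had the smallest p of the 9 (-2.48, SE 0.45, limma adjusted p = 0.530): all 3 diet weeks lay below chow in KO, by 0.26 log2 units on average, and all 3 above it in WT, by 2.22. Cdkn1a had the opposite sign (3.20, SE 2.21, limma adjusted p = 1), with mean differences of 4.28 in KO, where the chow array was not well above background, and 1.07 in WT, and Btg2 stood at -2.27 (SE 1.76, limma adjusted p = 1). On scaled log2 levels Gadd45a in KO differed from chow by -0.04, -0.49 and -0.26 at 6, 12 and 20 weeks. The chow side of each of these interaction contrasts is 1 array per genotype. Their error therefore comes from how the 3 diet weeks vary within a genotype, with the weeks standing in for replicates.

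**Figure D4:**
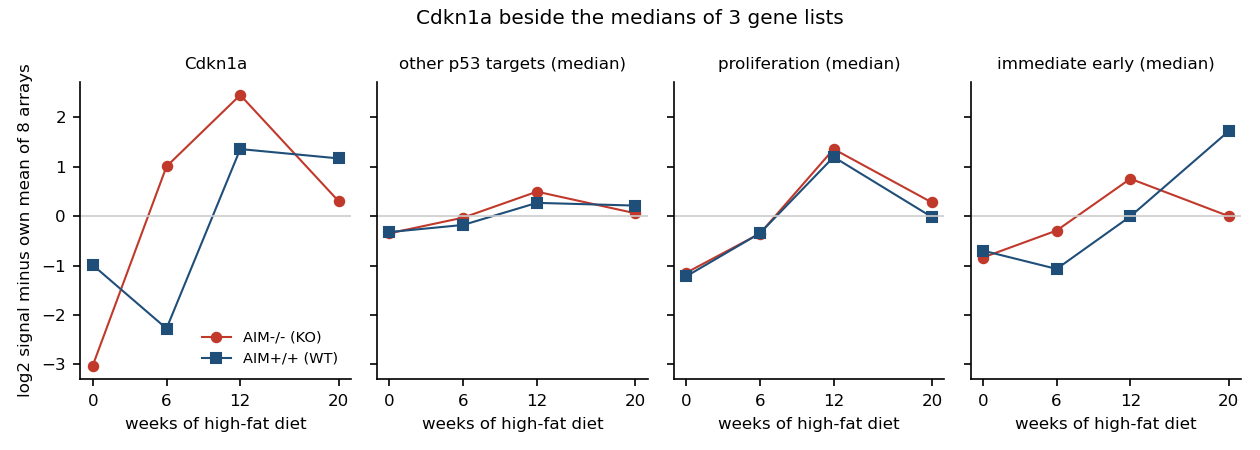
Log2 signal minus its own mean over the 8 arrays (vertical axis) against weeks of high-fat diet, for Cdkn1a and for the median of 25 other p53 targets, 11 proliferation markers and 14 immediate early genes, KO as circles and WT as squares. Cdkn1a, the other p53 targets and the proliferation markers were highest at 12 weeks in both genotypes, while the immediate early genes were highest in WT at 20 weeks, at 1.72.

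The pattern of Cdkn1a over the 8 arrays was set beside that of every gene well above background on all of them (12438 genes), by Pearson correlation of scaled log2 levels. Since the arrays share the same weeks and genotypes, these values only describe likeness. Cdkn1a itself was not well above background on its lowest array, KO on chow, and each value includes that array. The highest were Itgb5 (0.99), an integrin subunit, Clmp (0.98), Tspan17 (0.97), Nos3 (0.97) and Tvp23b (0.97). Nos3, the endothelial nitric oxide synthase, gave 78.6, 128, 156 and 150 in KO livers, against 86.3, 67.8, 139 and 136 in WT livers, which repeats at small size the high KO and low WT arrays of 6 weeks. The lowest were 1700029P11Rik (-0.99), Aadat (-0.98), Zbtb7c (-0.98), an unnamed transcript (-0.98) and Nr3c1 (-0.97). Nr3c1, the glucocorticoid receptor, gave 1295, 1141, 940 and 1276 in KO livers, against 1070, 1009, 993 and 1206 in WT livers. Within the 9 genes the correlation with Cdkn1a was 0.91 for Trp53inp1, 0.78 for Bax, 0.72 for Ccng1, 0.66 for Fas and 0.57 for Mdm2, and 0.48, 0.18 and -0.27 for Btg2, Gadd45a and Bbc3 (8 arrays each).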

How the data were processed

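Liver RNA was hybridised to 8 one-colour Agilent arrays, 1 per genotype and week. The authors deposited scanner files made with Feature Extraction, Agilent's image software (version 9.5 in the submitters' processing notes, 9.5.3.1 and protocol GE1-v5_95_Feb07 per the file headers), which hold a background-subtracted processed intensity per spot. The value table they deposited holds log2 values and equals the log2 processed signal minus a constant for each array, close to its 75th percentile. It was used as an alternative.

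The processed intensity was averaged over the unflagged spots of a probe (75 to 130 flagged spots per array and 1639 control spots were left out), and log2 values were scaled by subtracting the 75th percentile of the array. Probes well above background on at least 2 arrays were kept (21385 of 41174), and a gene was represented by its brightest probe on average. Of all probes 24375 were named through RefSeq (GRCm38.p6) and 16799 kept the name in the files. Probe coordinates are mm8.

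The limma package 3.58.1 in R 4.3.3, with files read by data.table (version 1.17.8), fitted week as a factor plus genotype (3 residual degrees of freedom), and the interaction in a model of 4 cells (4 residual degrees of freedom). Fits were tested on simulated data. A fold against arrays that are not well above background is a lower bound, taken at the dimmest signal that the software marked as above background, and written as at least N-fold. List genes were named if they passed the threshold, or as the 4 largest coefficients of a list among genes well above background on at least 4 arrays, and for Cdkn1a the 5 most and 5 least correlated genes. The genes and lists were chosen with earlier results of these data known. Alternatives were normexp background correction (offset 50), quantile normalisation, the deposited table, other filters, the mean of probes, an intensity trend, and leaving out arrays or weeks. The number of arrays limits the precision.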

Additional observations from a re-analysis of the deposited data

Results flagged for a closer look

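The mean diet difference of Gadd45a had opposite signs in the 2 genotypes and was small in KO. On scaled levels the mean of the 3 diet weeks minus chow was -0.26 log2 units in KO and 2.22 in WT. In KO the differences were -0.04, -0.49 and -0.26 at 6, 12 and 20 weeks. In WT all 3 weeks were higher than chow. The difference itself was tested as the interaction and did not pass (-2.48, SE 0.45, limma adjusted p = 0.530, 0.146 to 0.943 over the alternatives). It rests on 1 chow array per genotype, on which Gadd45a gave 621 in KO and 132 in WT. Clock genes differed on the same 2 arrays, and their part was not tested.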

How the results depend on the processing

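None of the 9 measured genes passed in any of the 5 comparisons with the settings reported. For diet, Fas passed with normexp correction (0.64, limma adjusted p = 0.0388), with only probes above background on all arrays (0.69, 0.0312) and with an intensity trend (0.69, 0.0285), and Ccng1 with the trend (0.64, 0.0481), so the 9 held 1, 1 and 2 called genes. Genes called for diet numbered 358, and 688 with normexp, 232 with quantile normalisation, 27 without a filter, 905 with the all-array filter, 1047 with the trend and 0 to 519 when arrays or weeks were left out. For 20 against 6 weeks they numbered 18, and 8 without a filter, 36 with the all-array filter, 38 with the mean of probes, 82 with the trend and 0 to 11 with arrays left out. Genotype called 5, and 3 with the all-array filter and 1 in every fit with arrays left out. The interaction called 0, and 111 without a filter and 0 to 3 with arrays left out. Single-week counts of genes at least 2-fold apart were 1112, 1007, 699 and 638 at 0, 6, 12 and 20 weeks, and 416, 351, 215 and 175 with normexp and 480, 395, 184 and 155 with the all-array filter. Without a filter they were 1067 at 12 and 1094 at 20 weeks. Of the 9 genes, 0 were past 2-fold at 12 weeks with normexp or the all-array filter and 0 at 6 weeks with that filter, which removes Cdkn1a.

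Among the coefficients printed in the results, signs turned for Mdm2 on diet with the mean of probes (-0.042) and with arrays left out (-0.066 to 0.092), and for Btg2 (-0.069 to 2.20) and Gadd45a (-0.26 to 2.22) on diet, Cdkn1a by genotype (-0.60 to 1.17) and Cdkn1a at 20 against 6 weeks (-0.57 to 3.31) with arrays left out. Of the others, signs turned by genotype for Btg2 in 10 of 19 settings (-0.52 to 0.81), Trp53inp1 in 9 (-0.22 to 0.23), Fas in 4 and Ccng1 and Gadd45a in 3 each. They turned at 12 against 6 weeks for Bbc3, Gadd45a and Fas in 1 setting each, at 20 against 6 weeks for Mdm2 in 3, Bax in 2 and Gadd45a and Fas in 1 each, and in the interaction for Bax in 4, Mdm2 in 2 and Bbc3 in 1. Chosen after seeing the data, list counts for diet were repeated without arrays: the other p53 targets above 0 numbered 19 to 23 of 25, with medians of 0.31 to 0.71. The causes were not tested. Scaling moved the median of all genes by at most 0.04.

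No paired analysis was possible because 1 array per genotype and week leaves no replicate number to pair by, and week, a factor of the genotype test over all weeks, already sets KO against WT within weeks. The slide block could not be fitted for genotype, and for the other contrasts it equals the genotype term. Dim probes, Tnfrsf10b and the chow level of Cdkn1a among them, are limited by background.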
